A study of Mus musculus with 6 samples.

Results

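Metallothioneins and zinc transporters were followed in cultured precursor cells of the adult mouse hippocampus that had received human LDL or saline. The set holds 8 genes out of 21364 named genes on the array: the metallothioneins Mt1, Mt2 and Mt3, the transcription factor Mtf1, the exporters Slc30a1 and Slc30a4 and the importers Slc39a1 and Slc39a6. Its members were found by the RefSeq accession of each non-control probe, since the array files used here carry accessions and no gene symbols. All 8 genes were found, on 11 of 55681 probes. They were isolated from dentate gyri of male C57BL6/JRj mice, aged 8 weeks, and expanded as adherent cells with EGF and bFGF, growth factors for precursors, at 20 ng/ml. After 2 days in culture, 3 cultures received LDL (low-density lipoprotein, the main cholesterol carrier of human blood) for 48 h, and 3 cultures received saline for the same time. The treatment protocol in the labels gives the LDL dose as 100 ug/ml and the sample descriptions write the volume unit differently, so the dose unit is uncertain. Each culture was measured on 1 Agilent array, and the 3 experiments are labelled as independent and from different passages. Whether the passages came from separate isolations of cells is not stated.

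Metallothioneins are small cysteine-rich proteins that bind zinc and copper and buffer their free concentration. Free zinc activates MTF1, the metal-responsive transcription factor, which binds short metal response elements in front of Mt1, Mt2 and Slc30a1 and raises their transcription. Transporters of the SLC30 family move zinc out of the cytosol, to the outside or into vesicles, and those of the SLC39 family bring it in. Mt1 and Mt2 are also known to respond to glucocorticoids and oxidative stress. In the brain both are prominent in astrocytes, while Mt3 is a largely brain-restricted member.

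The sequence in front of 3 members is shown, because Mt1 and Mt2 had the largest differences of the set and Slc30a1 is the transporter known to be under the same factor. Each sequence comes from RefSeq (assembly GRCm38.p6, plus strand) and runs from 250 bases before the annotated start through 30 bases from it. Capitals mark matches, on either strand, to the metal response element core (TGCACNC or TGCGCNC) and to the antioxidant response element (TGACNNNGC), the site bound by the oxidative stress factor NRF2.
Mt1, chr8:94178839-94179118: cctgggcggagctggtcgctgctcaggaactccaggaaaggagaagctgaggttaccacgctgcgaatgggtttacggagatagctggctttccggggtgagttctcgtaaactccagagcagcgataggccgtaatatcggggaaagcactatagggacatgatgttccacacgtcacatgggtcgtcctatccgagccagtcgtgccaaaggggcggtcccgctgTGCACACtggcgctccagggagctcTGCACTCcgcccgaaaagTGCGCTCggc
Mt2, chr8:94172368-94172647: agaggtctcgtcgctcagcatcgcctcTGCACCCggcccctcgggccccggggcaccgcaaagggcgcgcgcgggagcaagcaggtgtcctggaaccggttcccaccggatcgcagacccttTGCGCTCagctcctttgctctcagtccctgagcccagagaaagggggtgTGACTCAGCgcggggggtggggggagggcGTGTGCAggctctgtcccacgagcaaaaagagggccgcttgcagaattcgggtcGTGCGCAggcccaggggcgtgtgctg
Slc30a1, chr1:191906531-191906810: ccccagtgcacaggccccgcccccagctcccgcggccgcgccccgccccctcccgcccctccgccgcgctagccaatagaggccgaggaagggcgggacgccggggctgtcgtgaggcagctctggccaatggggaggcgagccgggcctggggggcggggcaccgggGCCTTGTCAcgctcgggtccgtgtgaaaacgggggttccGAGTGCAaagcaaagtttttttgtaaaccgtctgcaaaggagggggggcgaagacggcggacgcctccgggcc
Mt1 held 3 matches to the metal response element, at bases -23 to -17, 3 to 9 and 21 to 27, where base 1 is the annotated start. Mt2 held 4, at bases -223 to -217, -128 to -122, -50 to -44 and 5 to 11, and 1 match to the antioxidant response element at bases -79 to -71. Slc30a1 held 1 of each, at bases -43 to -37 and -82 to -74. No match of one motif overlapped a match of the other in these sequences. Among 32851 windows of the same length in RefSeq, 24.1% held at least 1 metal response element match, 1.73% at least 3 and 0.405% at least 4. At least 1 antioxidant response element match stood in 11.5%. Slc30a4 held 3 metal response element matches, Slc39a1 held 1 antioxidant response element match, and Mt3 and Mtf1 held neither in this window. A match is a match of letters and shows no binding. The annotated start was taken as given and was not checked against mapped transcript starts. Elements before or after a window were not looked for. The lack of an antioxidant response element match for Mt1 thus holds for this window only.

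No member changed detectably after LDL. Signals are log2 values set to the array's own 75th percentile, so a difference of 1 is a doubling. In limma, with Benjamini-Hochberg adjustment over 24225 features, 0 of 8 members passed an adjusted p of 0.05 (adjusted p between 0.812 and 0.986), against 0.12% of all features (0.0124% higher and 0.107% lower with LDL). At an unadjusted p of 0.05 it was 0 of 8, against 7.46% of all features, and the LDL and saline values overlapped in 8 of 8, where 14.6% of all features had groups that did not overlap. The log2 differences, LDL minus saline, ran from -0.21 for Mt1 to 0.04 for Slc30a4 and Slc39a6, with 6 negative and 2 positive. Their median was -0.10, against -0.03 over all features. The smallest difference that passed anywhere in the table was 0.92, so all 8 members lay below the size of any call. Their 95% intervals, not adjusted for the number of genes, reached no lower than 0.685-fold, for Mt1, and no higher than 1.27-fold, for Mtf1.

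**Figure D1:**
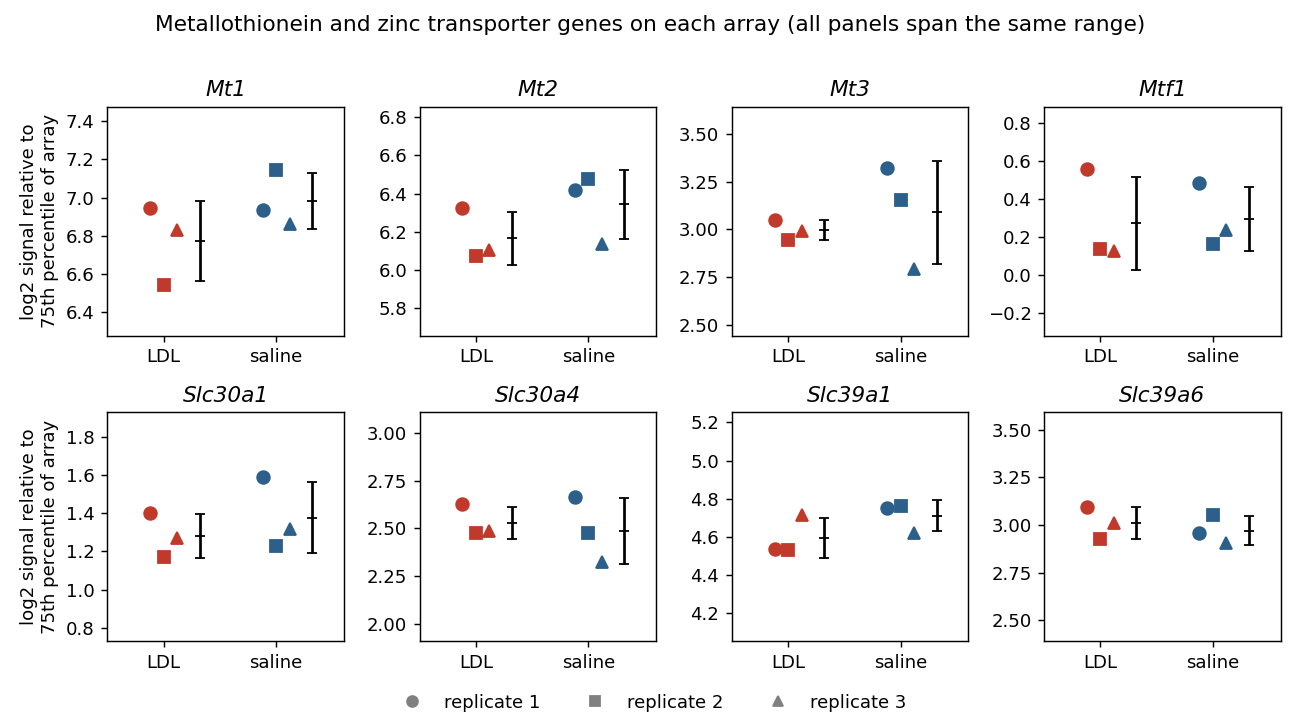
Normalized log2 signal of the 8 genes on each array (75th percentile of that array = 0), with LDL on the left and saline on the right of each panel; marker shapes give the replicate number, and the bar beside each group is its mean and SD (n = 3). The groups overlap in every panel, and the mean of Mt1 is 6.77 with LDL and 6.98 with saline.

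Mt1 had 6.94, 6.54 and 6.83 on LDL arrays 1 to 3, against 6.93, 7.15 and 6.86 on saline arrays 1 to 3. LDL array 2 was the lowest of the 6 and saline array 2 the highest, and the other 4 lay between them with no separation by treatment. The means were 6.77 ± 0.21 with LDL and 6.98 ± 0.15 with saline (SD, n = 3 each). The difference was -0.21 (SE 0.14, 95% interval -0.55 to 0.13, limma adjusted p = 0.812), or 0.865-fold. It was -0.09 without LDL replicate 2 and -0.13 without saline replicate 2, and -0.30 in slide row 1 against -0.03 in slide row 2. Slide row 2 holds only replicate 3 of each group, so slide row cannot be told apart from replicate. Before scaling, the processed intensity of this probe was between 78380 and 117967 with LDL and between 93101 and 110177 with saline, and the probe was saturated on no array. Mt1 has a 2nd probe, designed to a predicted transcript of the gene. Its values were -0.77, -0.38 and -0.57 with LDL and -1.11, -0.28 and -0.42 with saline, a difference of 0.03 (95% interval -0.52 to 0.58). The probes thus differed in sign, and the mean of both gave -0.09.

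Mt2, whose product has the same buffering role, had 6.33, 6.07 and 6.10 with LDL, against 6.42, 6.48 and 6.14 with saline. Saline arrays 1 and 2 lay above every LDL array, and saline array 3 lay among the LDL values. The difference was -0.18 (SE 0.13, 95% interval -0.49 to 0.14, limma adjusted p = 0.829), with means of 6.17 ± 0.14 with LDL and 6.34 ± 0.18 with saline (SD, n = 3 each). Each LDL value lay below the saline value of the same number, with differences of -0.09, -0.41 and -0.03, as also for Slc30a1 among the 8 members, although the numbers do not establish pairs here. The difference was -0.25 in slide row 1, while the value of slide row 2 is the same -0.03 as for number 3. It was -0.28 without saline replicate 3 and -0.11 without saline replicate 2. Mt1 and Mt2 are neighbours in the RefSeq gene table, and both were lowest on LDL array 2 and highest on saline array 2. Within an array Mt1 minus Mt2 stayed between 0.47 and 0.73, a span of 0.26, while Mt1 alone spanned 0.61 and Mt2 alone 0.41. Cross-signal between these close paralogs was not tested, the probes' sequences being outside the data used.

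Mt3, the brain member, had 3.05, 2.95 and 2.99 with LDL, against 3.32, 3.15 and 2.79 with saline. The LDL values lay close together, inside the range of the saline values. Their SD was 0.05 with LDL and 0.27 with saline (n = 3 each), and over all features the median SD was also smaller with LDL, at 0.10 against 0.19. The difference was -0.09 (SE 0.15, 95% interval -0.45 to 0.26, limma adjusted p = 0.928), and it turned to 0.023 without saline replicate 1. It was -0.24 in slide row 1 and 0.20 in slide row 2.

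Mtf1, the zinc sensor that drives Mt1 and Mt2, had 0.55, 0.14 and 0.12 with LDL, against 0.48, 0.16 and 0.24 with saline. Array 1 was the highest in both groups and the other arrays lay together. The difference was -0.02 (SE 0.16, 95% interval -0.39 to 0.35, limma adjusted p = 0.986), and its sign turned with median scaling, with slide row 1 alone and in 3 of the 6 fits that left out 1 array. A 2nd Mtf1 probe had a difference of 0.02 (95% interval -0.35 to 0.40). A 3rd was well above background on 1 of 3 LDL arrays and 0 of 3 saline arrays and was not tested.

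Slc30a1, the exporter of the cell surface, had 1.40, 1.17 and 1.27 with LDL, against 1.59, 1.23 and 1.32 with saline. As for Mt2, every LDL value was under the saline value of its number, and the groups overlapped. The difference was -0.10 (SE 0.13, 95% interval -0.40 to 0.21, limma adjusted p = 0.913), and it was 0.0087 without saline replicate 1. Slc30a4, which loads zinc into vesicles, had 2.63, 2.47 and 2.49 with LDL, against 2.67, 2.48 and 2.32 with saline. Saline arrays 1 and 3 were the highest and the lowest of the 6. Its difference was 0.04 (SE 0.12, 95% interval -0.24 to 0.33, limma adjusted p = 0.965), and it turned negative without LDL replicate 1, without saline replicate 3 and in slide row 1.

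Slc39a1, an importer of the cell surface, had 4.54, 4.53 and 4.71 with LDL, against 4.75, 4.76 and 4.62 with saline. LDL arrays 1 and 2 were below every saline array, and LDL array 3 was above 1 of them. The difference was -0.12 (SE 0.10, 95% interval -0.36 to 0.13, limma adjusted p = 0.852). Slide row 1, which holds 2 arrays a group, gave -0.22, while slide row 2, which holds 1 a group, gave 0.095. Slc39a6, another importer, had 3.09, 2.93 and 3.01 with LDL, against 2.96, 3.05 and 2.90 with saline. The values were interleaved, and this gene had the smallest SE of the set. Its difference was 0.04 (SE 0.10, 95% interval -0.19 to 0.27, limma adjusted p = 0.957), with an interval in folds of 0.874 to 1.21, and it was -0.0015 without LDL replicate 1.

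The exact permutation test over arrays gave p between 0.2 and 0.9 for the 8 members, where 3 arrays against 3 allow no two-sided p below 0.1. The SE of the differences ran from 0.10 to 0.16, against a median of 0.13 over all features. For Mt1, 75.4% of all features had a smaller absolute difference, for Mt2 68.5% and for Slc39a1 50.5%, and for the other 5 members fewer than for Slc39a1.

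**Figure D2:**
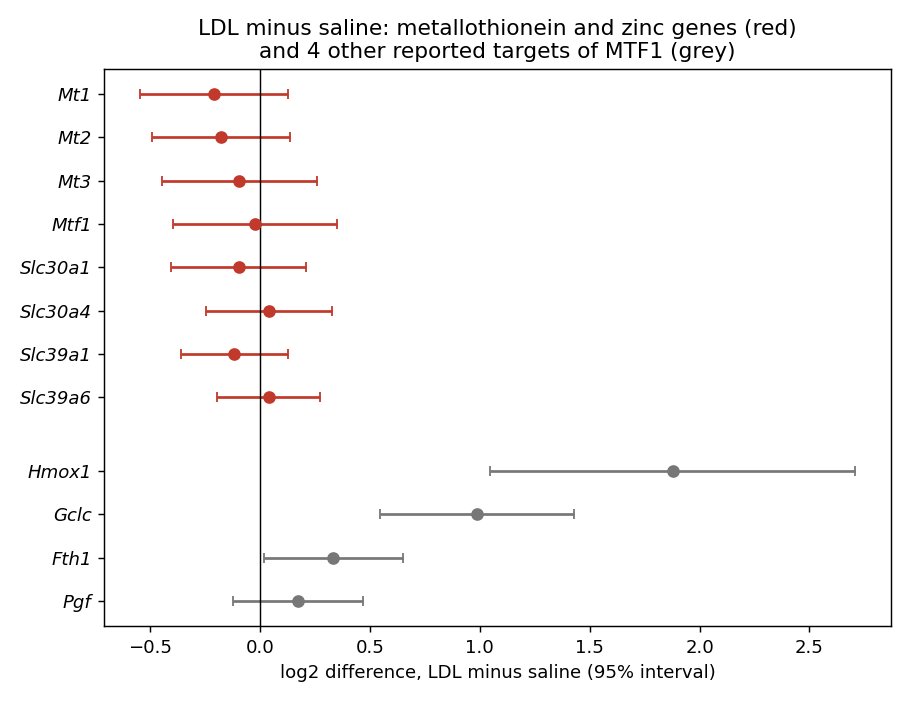
Log2 difference, LDL minus saline, with its 95% interval from limma, for the 8 metallothionein and zinc genes (red) and for the 4 genes with the smallest p among 9 tested other reported targets of MTF1 (grey). Every red interval crosses 0, from -0.55 at the lowest to 0.35 at the highest, while the intervals of Hmox1, Gclc and Fth1 lie above 0 without passing over all features.

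The wider zinc transport list, chosen like the other lists with earlier results of these data known, held 20 more transporters of both families, the vesicular protein Tmem163 and Mt4. Of these 22 genes, 17 were tested and 0 passed over all features, with 0 at an unadjusted p of 0.05 and 0 with groups that did not overlap, against 14.6% of all features. Values were positive for 14 and negative for 3, and the median was 0.11, against -0.03 over all features. Slc39a12, an importer known from astrocytes, had the smallest p, with -4.43, -2.89 and -3.08 with LDL, against -3.06, -2.47 and -2.30 with saline. Its groups overlapped, and the difference was -0.86 (95% interval -1.85 to 0.14, limma adjusted p = 0.731). LDL array 1 stood well below all other arrays and enlarged this difference, and the signal was low on every array. Slc39a13 had a difference of 0.23, Slc39a4 0.51 and Slc39a9 0.20 (limma adjusted p between 0.738 and 0.794). Slc39a9 was well above background on 3 LDL and 2 saline arrays, so it entered the test through the LDL group alone. With all 6 arrays required above background, 16 genes were left, with a median of 0.094. The median of the 17 was 0.057 without LDL replicate 1, 0.065 without saline replicate 3 and 0.070 in slide row 2 alone. The exporters Slc30a3, Slc30a8 and Slc30a10 and the importer Slc39a8 were well above background on no array, and Slc39a5 was on 1 LDL array, so no difference is given for them.

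Mt4, named after its values were seen, is the metallothionein known from stratified epithelia. Its processed intensity was 771.6, 666.2 and 770.0 on the LDL arrays, against 809.2, 600.2 and 31.7 on the saline arrays. Saline array 3 stood far below the other 5, although its spot was well above background and carried no outlier flag. The log2 difference was 1.37 (95% interval -1.54 to 4.29, limma adjusted p = 0.855), and it turned to -0.23 without saline replicate 3.

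Other genes reported as targets of MTF1 included some with larger differences than the metallothioneins. On a list of 10, 9 were tested and 0 passed over all features, with 8 positive and 1 negative. In 3 the groups did not overlap, each higher with LDL, where 5.82% of all features were higher without overlap. The list was chosen with earlier results of these data known, so that share is given for scale and the count of 3 adds no support. The median was 0.076, against -0.026 over all features, and was 0.20 without LDL replicate 1, 0.17 without saline replicate 2 and 0.13 without saline replicate 3. It was 0.12 with median scaling and 0.19 in slide row 2 alone. Those 3 were Hmox1, heme oxygenase, Gclc, the catalytic subunit that starts glutathione synthesis, and Fth1, the ferritin heavy chain that stores iron, and each is also known as a target of NRF2. Fth1 had 8.05, 7.95 and 7.93 with LDL, against 7.78, 7.77 and 7.39 with saline, a difference of 0.33 (95% interval 0.02 to 0.65, limma adjusted p = 0.645). Gclc had a difference of 0.99 (95% interval 0.55 to 1.43, limma adjusted p = 0.243) and Hmox1 of 1.88 (95% interval 1.05 to 2.71, limma adjusted p = 0.242). Hmox1 had 4.98, 3.74 and 3.63 with LDL, against 2.32, 2.36 and 2.04 with saline. LDL array 1 stood above the other LDL arrays, and the Hmox1 difference was 1.45 without LDL replicate 1. Pgf, a growth factor gene, had 0.17 (limma adjusted p = 0.825), and Slc39a10, which also belongs to the zinc transport list, had 0.04.

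Set against Mt1 within each array, Hmox1 minus Mt1 was -1.96, -2.80 and -3.20 with LDL, against -4.61, -4.79 and -4.82 with saline. Gclc minus Mt1 was -2.22, -2.25 and -2.58 with LDL, against -3.21, -3.76 and -3.67 with saline. Fth1 minus Mt1 was 1.11, 1.41 and 1.10 with LDL, against 0.85, 0.62 and 0.52 with saline. In all 3 pairs every LDL array lay above every saline array, as each of these genes already did on its own. The pairs joined such genes to the member of lowest difference, so their separation adds no support. The share of all features that separate when set against Mt1 was not computed. The mean difference, LDL minus saline, was 2.09 for Hmox1 relative to Mt1, 1.20 for Gclc and 0.54 for Fth1. The exact permutation p was 0.1 for each, the smallest that 3 arrays against 3 allow, so none can pass, with or without adjustment over the 3 pairs, which were chosen after the values were seen.

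Genes of copper handling, a metal that metallothioneins also bind, had 13 of 14 members tested and 0 that passed over all features. There were 7 positive and 6 negative values, with a median of 0.033, and 3 were higher and 1 lower without overlap, against 5.82% and 8.77% of all features. Slc31a2, a copper transporter, had 0.31, Sod1, the copper and zinc superoxide dismutase, 0.20, and Sco1 and Sco2, which deliver copper to cytochrome oxidase, 0.13 and 0.17 (limma adjusted p between 0.677 and 0.844). The list median was 0.0019 without LDL replicate 3, 0.099 without LDL replicate 2, and 0.087, 0.068 and 0.055 without saline replicates 1, 2 and 3.

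**Figure D3:**
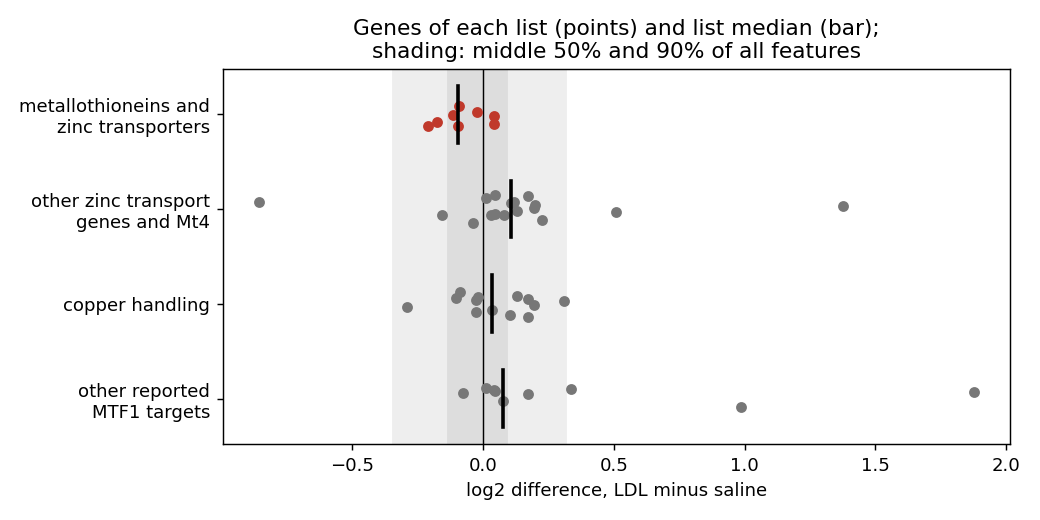
Log2 difference, LDL minus saline, of the tested genes of 4 lists (points) with the list median (bar); the dark and light shading run from the 25th to the 75th and from the 5th to the 95th percentile of all 24225 features, that is between -0.13 and 0.09 and between -0.34 and 0.32. The 8 metallothionein and zinc genes lie between -0.21 and 0.04, inside the light band, while Hmox1 and Mt4 lie far to the right.

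Across the 6 arrays the profile most like that of Mt1, by the root mean square difference of log2 values each centred on its own mean, belonged to Aard at 0.0199, followed by Vma21 at 0.0421, Rps9 at 0.0496, Cnih2 at 0.0574 and Stk4 at 0.058. Mt2 came at place 100 of 14927 named features (0.0995) and Mt3 at place 3318 (0.179). For Mt2 the nearest were Frmpd1 at 0.0248, A930018P22Rik at 0.0344, Cdkal1 at 0.0368, Btbd9 at 0.037 and Rab33b at 0.0375, with Mt1 at place 552 and Mt3 at place 691. With 6 arrays and genes that vary this little, the order is a description only.

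The labelled cell type was checked by marker lists. Of 10 precursor markers 9 were well above background on all 6 arrays, among them Nes, Sox2, Vim and Fabp7. Markers of other cell types also passed that bar, so the lists do not set the precursors apart from them. It was passed by the oligodendrocyte markers Olig2 and Mog, by 6 of 8 neuronal ones (Tubb3, Map2, Snap25, Rbfox3, Prox1 and Syt1), by 5 of 8 microglial ones (Itgam, Csf1r, Tmem119, Cx3cr1 and Ptprc) and by 2 of 8 vascular and mesenchymal ones (Kdr and Pecam1). Dcx and Stmn2 of neurons, P2ry12 and Tyrobp of microglia, and Cdh5, Col3a1, Pdgfrb and Rgs5 of vessels were above background on no array. The summed linear level, in multiples of the 75th percentile, was 24.65 to 27.87 with LDL and 25.15 to 33.08 with saline for neuronal markers. For microglial ones it was 19.53 to 23.94 with LDL and 19.94 to 24.66 with saline, with Itgam the brightest (mean log2 4.08 in both groups). For vascular ones it was 13.42 to 14.07 with LDL and 14.15 to 14.79 with saline. Nearly all of the vascular sum came from Kdr (mean log2 3.73 with LDL and 3.80 with saline), so it follows that gene. All 8 astrocyte markers were above background on all 6 arrays, and their sum was 131.5 to 148.0 with LDL and 161.6 to 186.2 with saline. Nearly all of it came from Aldoc and Slc1a3, which together gave 128.2 to 144.5 with LDL and 158.0 to 182.7 with saline. The other 6 gave 3.115 to 3.449 with LDL and 3.521 to 4.01 with saline. Of the 8 astrocyte markers 7 had a negative difference, while Gfap, the intermediate filament of astrocytes, had 1.35 and passed (limma adjusted p = 0.022). Its level was low, with a mean of -2.10 with LDL and -3.45 with saline, on the brightest tested of its 3 probes. Without the background filter, with the slide row block and in slide row 1 alone, 0 features passed as higher, so Gfap did not pass there. Since Mt1, Mt2 and Mt3 are also expressed in astrocytes, the astrocyte sum is given beside them, and its part in their values was not tested. In bulk RNA fewer cells of a type and less RNA per cell cannot be told apart. Over all features 3 were higher and 26 lower after LDL, and the share of probes well above background ran from 55.9% to 66.9% per array. The number of arrays limits the precision.

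**Figure D4:**
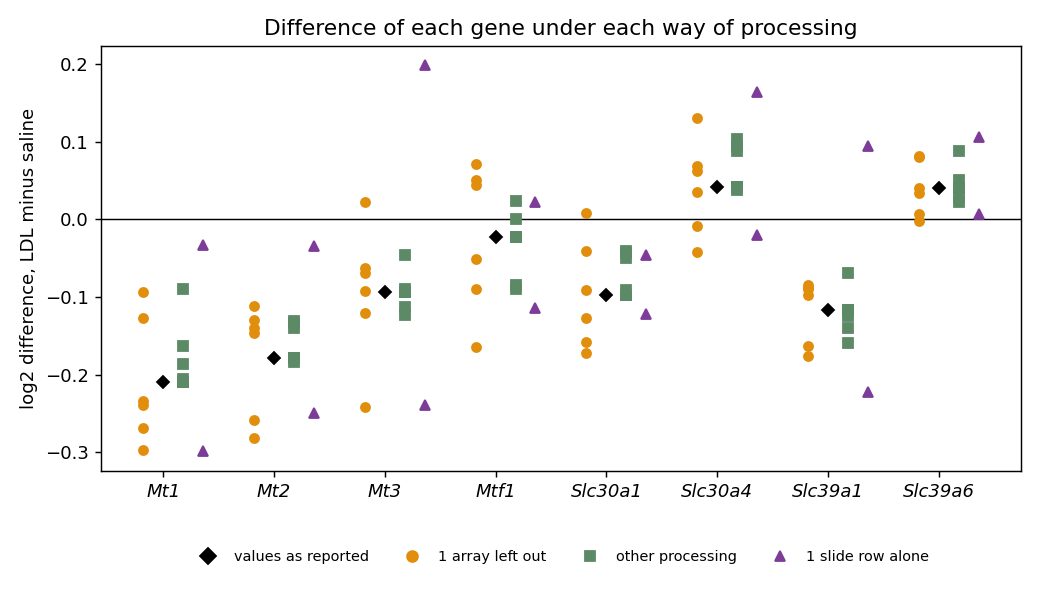
Log2 difference, LDL minus saline, of each gene with the values as reported (diamond), with 1 array left out (circles), with other processing (squares) and in 1 slide row alone (triangles). Mt1 and Mt2 stay below 0 in all 20 alternatives, between -0.30 and -0.03 and between -0.28 and -0.03, and the other 6 genes cross 0 in at least 1. Alternatives that change only the probe filter, the blocks or the variance model left the values as reported. The 20 are therefore not separate evidence for a sign.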

How the data were processed

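Cy3-labelled cRNA came from 100 ng of RNA per culture, per the labels' protocols. Each deposited intensity is linear and, per the file headers, had its background subtracted and was detrended within its array by Agilent Feature Extraction 10.7.3.1. The submitters' processing notes also list R 3.4.4 and limma 3.34.9. The authors deposited log2 values of the same arrays, aligned between arrays by a method not given in the sources used here, which served as an alternative. Their other flags, such as well above background, are codes of 0 or 1 per the file headers.

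From these, the log2 processed signal was taken and its 75th percentile on the array subtracted. Outlier-flagged spots were dropped, except where all spots of a probe were flagged (124 probes, none of a member). A probe was tested if well above background on all 3 arrays of a group, in at least 50% of its spots. The brightest probe stood for a gene. Accessions were named through RefSeq (GRCm38.p6), which matched 28325 of 55681 probes. Groups were compared with limma 3.58.1 in R 4.3.3, two-sided, without covariates, and the code was tested on simulated data. The members and lists were chosen with earlier results of these data known. The text names all members, up to 4 genes of the smallest p per list, and the 5 nearest profiles of Mt1 and Mt2. Slide row (2 rows of 1 slide) was tried as a block. Replicate numbers were checked for pairing. Across features, deviations of same-numbered arrays correlated at 0.21, -0.04 and 0.18, and those of differently numbered arrays at -0.23 to 0.08. Numbers 1 and 3 thus lay above every value between different numbers, and number 2 did not, so pairing is not excluded. Pairs were not assumed, and replicate number was also tried as a block. Some marker results are not reported here. Figures used matplotlib 3.10.9.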

Additional observations from a re-analysis of the deposited data

How the results depend on the processing

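Across 20 alternatives 0 of 8 members and 0 genes of the 3 other lists passed wherever a test could be made. The smallest adjusted p of a member was 0.508, and none reached an unadjusted p of 0.05. The member median of -0.095 was 0.031 in slide row 2 alone (1 array a group, no test) and -0.15 to 0.016 with 1 array left out. The copper median of 0.033 was 0.081 with median scaling, 0.11 in slide row 2 alone and 0.0019 to 0.099 with 1 array left out. The medians of the other 2 lists stayed positive, at 0.057 to 0.16 for zinc transport and 0.065 to 0.20 for reported MTF1 targets. Signs of uncalled differences turned for 6 members. With 1 array left out the ranges were -0.16 to 0.072 for Mtf1, -0.24 to 0.023 for Mt3, -0.17 to 0.0087 for Slc30a1, -0.042 to 0.13 for Slc30a4 and -0.0015 to 0.082 for Slc39a6. Mtf1 was 0.024 with median scaling and 0.022 in slide row 1, Slc30a4 was -0.0205 in slide row 1, and slide row 2 gave 0.20 for Mt3 and 0.095 for Slc39a1.

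Over all features, 3 were higher. That count was 5 after quantile normalization, 8 after median scaling, 9 after normexp (on median spot signals, the files having no mean) with quantile normalization, 7 in the authors' table, 5 when all 6 arrays had to be above background, 16 under trended robust variances and 5 once probes whose spots were all flagged were dropped, a setting chosen after seeing the data. It was 0 without the filter, with the row block and within row 1. The 26 lower were 0 without the filter, 14 under the row block, 0 within row 1 and 22 after median scaling. They rose to 39 under trended robust variances, 34 after normexp with quantile normalization and 30 when all 6 arrays had to be above background. The authors' table gave 27 lower, and dropping probes whose spots were all flagged gave 28. Leaving out 1 array, which also removes degrees of freedom, gave 0 to 6 higher and 0 to 23 lower. Nothing passed in limma without the filter (1773 features at an unadjusted p under 0.05), within row 1 (862), or on leaving out LDL array 2 (991), LDL array 3 (1375) or saline array 3 (1554). The cause was not tested for the other counts. Under the replicate block the counts were 2 higher and 1 lower, with 2 of those 3 also called without it. The block left the members' differences as reported and called 0 of them.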
